A study of Rattus norvegicus with 10 samples.

Results

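Small leucine-rich proteoglycans are secreted matrix proteins built from a short core of leucine-rich repeats, most of them with 1 or more sulfated sugar chains attached. The members described here are the 9 symbols Dcn, Bgn, Aspn, Lum, Fmod, Prelp, Omd, Ogn and Podn, taken by name from the 28522 gene symbols of the count table. All 9 were present. Of these, 8 passed the filter on low counts, as did 13869 symbols in all, and Omd did not. RNA was sequenced from 10 libraries in 4 groups, from cells of the ventricles of newborn rats aged 1 to 3 days; no strain or genotype is given in the sources used here. The groups were cardiomyocytes in serum-free medium with 10 µM phenylephrine (3 libraries), cardiomyocytes in serum-free medium alone (3 libraries), cardiac fibroblasts with phenylephrine (2 libraries) and cardiac fibroblasts in serum-free medium alone (2 libraries). Phenylephrine is an agonist of the alpha-1 adrenergic receptor that is widely used to induce hypertrophic growth of cultured heart muscle cells. The medium was changed 24 h after plating, and the time spent with phenylephrine is not given. The fibroblasts were at passage 2 and the cardiomyocytes were not passaged, so cell type and passage cannot be told apart. The labels do not say whether libraries of a group came from separate cultures or animals, so the p-values measure the spread between these libraries, which may be technical.

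In connective tissue the members of class I (Dcn, Bgn, Aspn) and class II (Lum, Fmod, Prelp, Omd) coat collagen fibrils and set how the fibrils grow, space and cross-link. Several of them also bind growth factors of the TGF-beta family and receptors at the cell surface, and soluble biglycan is known as a danger signal for innate immune cells. In the heart they are made mainly by fibroblasts and related stromal cells and are deposited as the matrix is remodelled.

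In the RefSeq promoter table (build GRCr8, 250 bases before to 50 bases after each gene's start), 6 of the 9 members had an entry; Dcn, Bgn and Prelp did not. Promoters of Lum, lumican, at chr7:34245456-34245755 and of Fmod, fibromodulin, at chr13:48045317-48045616, both on the plus strand, are shown because, of the members with an entry, these had the largest differences between fibroblasts with phenylephrine and without it. Capitals mark CAGAC, the core of the sequence bound by Smad proteins, read on either strand (GTCTG on the other).
Lum: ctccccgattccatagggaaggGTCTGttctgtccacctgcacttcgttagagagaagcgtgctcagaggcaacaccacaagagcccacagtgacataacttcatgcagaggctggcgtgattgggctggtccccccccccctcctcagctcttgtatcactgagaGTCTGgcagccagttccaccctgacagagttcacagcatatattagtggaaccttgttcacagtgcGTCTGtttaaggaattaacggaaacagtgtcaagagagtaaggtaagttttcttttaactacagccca
Fmod: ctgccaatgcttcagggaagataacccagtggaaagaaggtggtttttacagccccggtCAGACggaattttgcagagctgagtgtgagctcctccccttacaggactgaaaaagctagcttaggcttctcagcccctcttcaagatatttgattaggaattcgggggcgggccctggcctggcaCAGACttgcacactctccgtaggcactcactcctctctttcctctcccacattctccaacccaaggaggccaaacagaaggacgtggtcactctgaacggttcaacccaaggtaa
The Lum stretch held 3 matches, from position -228 to position -18 relative to the gene's start, and the Fmod stretch held 2, at positions -191 and -65. Ogn held 1, and Aspn, Omd and Podn held none. Of all 33469 promoters in the table, 50.1% held at least 1 such match, so it is common. TGANTCA, the AP-1 site, and the CArG box bound by serum response factor were found in none of the 6 promoters on either strand, against 7.33% and 1.64% of all promoters. GGGCGG, a site of Sp1, was found once in Fmod and 3 times in Podn (33.1% of all promoters). TATAAA was found in Ogn alone, with 2 overlapping places (14.2% of all promoters). A match is a description of the letters and not a measured binding site.

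Library totals ran from 18048944 to 22794744 counts, and levels are given as CPM, counts relative to the library size after correction with TMM (trimmed mean of M values) factors. The libraries carried the markers of their labelled cell type: 7 cardiomyocyte markers summed to 38965 to 49091 CPM in cardiomyocytes and 545 to 613 CPM in fibroblasts. Tnnt2 made up 475 to 564 CPM of the sums in fibroblasts. The 8 fibroblast markers (Col1a1, Col1a2, Col3a1, Ddr2, Pdgfra, Postn, Tcf21 and Thy1) summed to 8750 to 14858 CPM in cardiomyocytes with phenylephrine, 6225 to 11736 CPM in cardiomyocytes in serum-free medium, 53774 to 55961 CPM in fibroblasts with phenylephrine and 39314 to 46481 CPM in fibroblasts in serum-free medium, and none of them was at 0 in any library. Col1a1 and Col3a1 made up most of each sum, for example 36126 and 17296 CPM in fibroblast replicate 1 with phenylephrine. Col1a2 lay at 1.40 to 13.2 CPM, far below Col1a1, and the cause was not tested. In bulk RNA, fewer cells of a type and less RNA per cell cannot be told apart. A pair of cardiomyocyte libraries stood apart from their group mates: replicate 1 with phenylephrine differed from the other two by 18.5 and 23.0 times the counting variance, against 3.02 between those, and replicate 2 in serum-free medium by 22.3 and 23.1 times, against 4.29. The 2 fibroblast libraries with phenylephrine differed by 2.41 times the counting variance and those in serum-free medium by 14.5 times. Values without both cardiomyocyte libraries that stood apart are given where a result depends on them.

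Together the 9 members took 0.215% to 0.334% of all counts in cardiomyocytes with phenylephrine, 0.225% to 0.270% in cardiomyocytes in serum-free medium, 1.10% to 1.12% in fibroblasts with phenylephrine and 0.938% to 1.07% in fibroblasts in serum-free medium. Bgn alone held 72.5% to 91.9% of the members' counts in every library.

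Among class I, Dcn encodes decorin, which carries a single chondroitin or dermatan sulfate chain, binds collagen and sequesters TGF-beta. Its level was 100.4, 71.1 and 72.2 CPM in cardiomyocytes with phenylephrine and 241, 109 and 328 CPM in cardiomyocytes in serum-free medium. In fibroblasts it was 329.6 and 368 CPM with phenylephrine, against 133 and 169 CPM in serum-free medium. All 3 cardiomyocyte libraries with phenylephrine lay below all 3 without it, and both fibroblast libraries with phenylephrine lay above both without it. How many of all genes separated in this way was not counted, here or for the members below. By group means the order was fibroblasts with phenylephrine (349 ± 27.4 CPM, SD, n = 2), untreated cardiomyocytes (226 ± 110.0, n = 3), untreated fibroblasts (151 ± 25.4, n = 2) and cardiomyocytes with phenylephrine (81.2 ± 16.6, n = 3), and the ranges of the middle pair overlapped.

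Bgn encodes biglycan, the close relative of decorin with a pair of sugar chains. Its level was 2977, 1817 and 1867 CPM in cardiomyocytes with phenylephrine and 1579, 2289 and 1817 CPM in cardiomyocytes in serum-free medium. In fibroblasts it was 9780.0 and 9879.6 CPM with phenylephrine, against 8783 and 10096 CPM in serum-free medium. Every fibroblast library lay above every cardiomyocyte library, and within each cell type the ranges with and without phenylephrine overlapped.

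Aspn encodes asporin, a collagen-binding protein named for its run of aspartate residues. It had 7.58, 3.53 and 3.09 CPM in cardiomyocytes with phenylephrine and 2.36, 6.95 and 3.15 CPM in cardiomyocytes in serum-free medium. It had 21.0 and 23.4 CPM in fibroblasts with phenylephrine, against 16.6 and 23.8 CPM in fibroblasts in serum-free medium. The pattern over groups was that of Bgn: no overlap between cell types and overlap between treatments.

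Among class II, Lum encodes lumican, a keratan sulfate proteoglycan that spaces collagen fibrils. It had 77.5, 48.3 and 47.3 CPM in cardiomyocytes with phenylephrine and 74.1, 67.2 and 99.4 CPM in cardiomyocytes in serum-free medium. It had 72.9 and 83.2 CPM in fibroblasts with phenylephrine, against 27.5 and 45.5 CPM in fibroblasts in serum-free medium. Fibroblasts in serum-free medium were the lowest group, below every other library, and the ranges of the other 3 groups overlapped.

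Fmod encodes fibromodulin, which binds collagen and guides its cross-linking. It had 16.4, 21.9 and 25.1 CPM in cardiomyocytes with phenylephrine and 30.9, 17.6 and 30.1 CPM in cardiomyocytes in serum-free medium. It had 113 and 116 CPM in fibroblasts with phenylephrine, against 67.5 and 59.5 CPM in fibroblasts in serum-free medium. Fibroblasts lay above cardiomyocytes without overlap, fibroblasts with phenylephrine lay above those without it, and the 2 cardiomyocyte groups overlapped.

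Prelp encodes a relative of fibromodulin with a basic, arginine- and proline-rich start that binds heparan sulfate. It had 72.5, 63.1 and 65.9 CPM in cardiomyocytes with phenylephrine and 71.3, 63.4 and 68.9 CPM in cardiomyocytes in serum-free medium. It had 255 and 248 CPM in fibroblasts with phenylephrine, against 187 and 194 CPM in fibroblasts in serum-free medium. Its replicates lay close together, with a coefficient of variation between 1.99% and 7.17% in the 4 groups. Fibroblasts with phenylephrine lay above those without it, both lay above all cardiomyocytes, and the 2 cardiomyocyte groups overlapped.

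Omd, osteomodulin, a keratan sulfate proteoglycan known from bone, had 1 count in all 10 libraries together, in fibroblasts with phenylephrine replicate 1. A floor of 3 counts corresponds to 0.128 to 0.166 CPM per library, counting error alone, so it was not detectable above that level in any group and was not tested.

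Ogn, the class III member, encodes osteoglycin, also called mimecan. It had 33.7, 17.3 and 18.0 CPM in cardiomyocytes with phenylephrine and 19.2, 32.4 and 19.4 CPM in cardiomyocytes in serum-free medium. It had 347 and 363 CPM in fibroblasts with phenylephrine, against 270.1 and 283 CPM in fibroblasts in serum-free medium. The fibroblast libraries lay far above all cardiomyocyte libraries, and those with phenylephrine above those without it.

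Podn, the class V member, encodes podocan, which in mice restrains the growth of smooth muscle cells. It had 138, 108 and 118 CPM in cardiomyocytes with phenylephrine and 128, 124 and 140.4 CPM in cardiomyocytes in serum-free medium. It had 117 and 115 CPM in fibroblasts with phenylephrine, against 107 and 115 CPM in fibroblasts in serum-free medium. Across the 10 libraries its level stayed between 107 and 140.4 CPM. As ratios of group means, the 4 groups lay closer together than those of any other tested member.

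**Figure D1:**
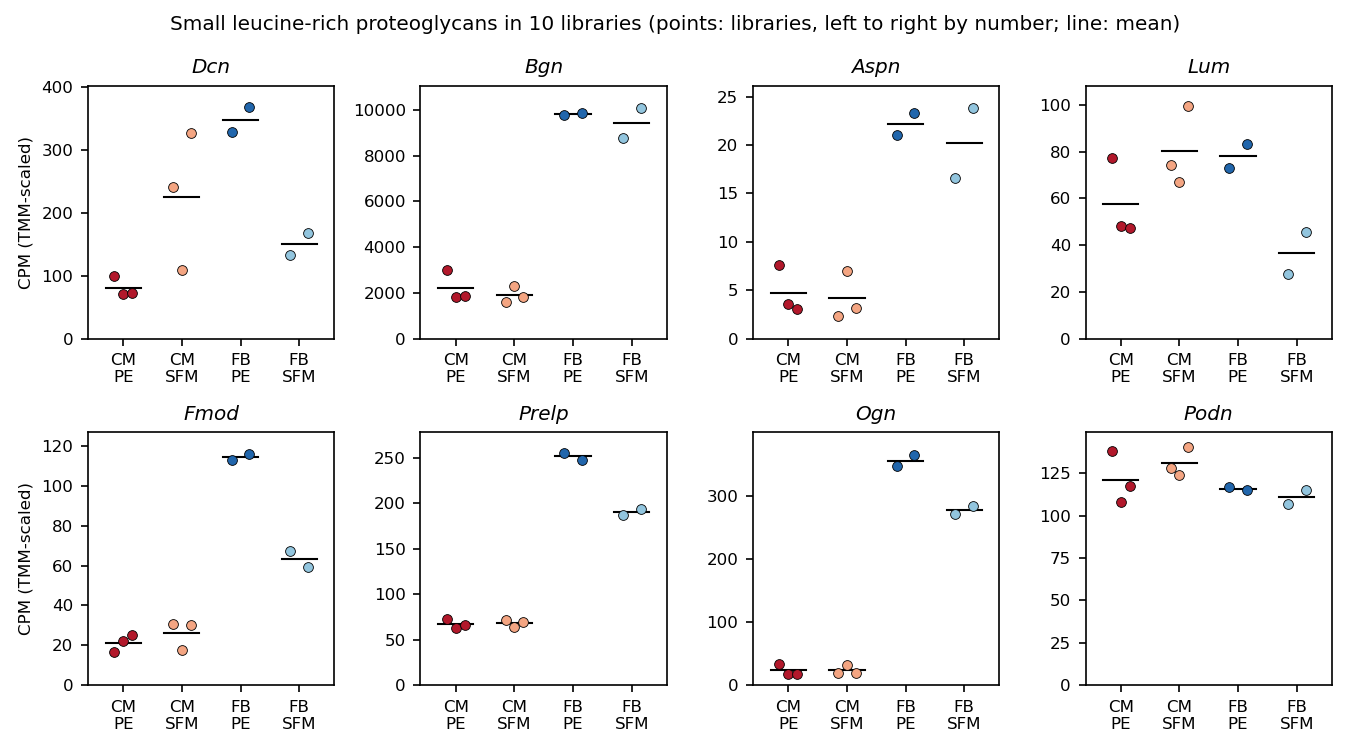
Level of the 8 tested members in each library (CPM, linear axis from 0; CM, cardiomyocytes; FB, fibroblasts; PE, phenylephrine; SFM, serum-free medium; points are libraries and lines are group means). Bgn, Aspn, Fmod, Prelp and Ogn sit higher in every fibroblast library than in any cardiomyocyte library, and Podn stays between 107 and 140.4 CPM. How many of all genes separate the cell types in this way was not counted. For Dcn and Lum the order of the cell-type means differs between media. The cell types overlap for Dcn in serum-free medium and for Lum with phenylephrine.

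Next, cardiomyocytes were compared with fibroblasts under the same medium. With phenylephrine, 6 of the 8 tested members were lower in cardiomyocytes and none was higher (edgeR's quasi-likelihood test with Benjamini-Hochberg adjustment over all 13869 genes, called at an adjusted p under 0.05), where 65% of all genes were called in either direction and 31.2% were called lower. The members' median log2 fold change was -2.12, beside 0.02 for all genes. Ogn had the largest fold, 15.5-fold lower in cardiomyocytes (log2 fold change -3.95 ± 0.31, SE, adjusted p = 5.18e-06). Fmod was 5.41-fold lower (-2.43 ± 0.23), Aspn 4.71-fold (-2.23 ± 0.44), Bgn 4.43-fold (-2.15 ± 0.22), Dcn 4.3-fold (-2.10 ± 0.39) and Prelp 3.74-fold (-1.90 ± 0.071), with adjusted p between 8.77e-10 and 0.0019. Lum did not pass (-0.44 ± 0.28, adjusted p = 0.199), nor did Podn (0.06 ± 0.095, adjusted p = 0.57). Without cardiomyocyte replicate 1 with phenylephrine Lum was called lower (log2 -0.71, adjusted p = 0.0429), and without both libraries that stood apart its adjusted p was 0.0741.

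In serum-free medium, 7 of the 8 were called, 5 lower and 2 higher in cardiomyocytes, where 66.1% of all genes were called in either direction, 31.7% lower and 34.5% higher. The members' median log2 fold change was -1.38, beside 0.02 for all genes. Ogn was 11.7-fold lower (-3.55 ± 0.30, adjusted p = 8.86e-06), Bgn 4.98-fold (-2.32 ± 0.22), Aspn 4.94-fold (-2.31 ± 0.44), Prelp 2.81-fold (-1.49 ± 0.071) and Fmod 2.42-fold (-1.27 ± 0.23). Lum was 2.2-fold higher in cardiomyocytes (1.14 ± 0.29, adjusted p = 0.00786), a call lost without fibroblast replicate 1 in serum-free medium (log2 0.82, adjusted p = 0.0665). Podn was 1.18-fold higher (0.24 ± 0.095, adjusted p = 0.0447), a small difference that missed the threshold with relative log expression factors, with DESeq2 and in 4 of the 5 fits that left out a library compared. Dcn did not pass (0.59 ± 0.40, adjusted p = 0.228, with overlapping libraries). Without cardiomyocyte replicate 2 in serum-free medium it was called higher in cardiomyocytes (log2 0.92, adjusted p = 0.00761).

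The fibroblast marker sum lay the same way in both media, with 8 of 8 markers called lower in cardiomyocytes, and its part in the members' differences was not tested. Many markers of other cell types were higher in cardiomyocytes: 10 of 10 leukocyte markers in serum-free medium (181 to 210 CPM summed in cardiomyocytes, 20.5 to 34.4 CPM in fibroblasts), 7 of 9 epicardial markers (221 to 268 CPM in cardiomyocytes, 110 to 122 CPM in fibroblasts) and 6 of 7 endothelial markers (63.3 to 77.6 CPM in cardiomyocytes, 24.2 to 29.9 CPM in fibroblasts). With phenylephrine the counts were 9 of 10, 6 of 9 and 6 of 7, and the epicardial sums overlapped, at 186 to 251 CPM in cardiomyocytes and 194 to 200 CPM in fibroblasts. Over all genes 34.5% were called higher in serum-free medium and 33.7% with phenylephrine. In fibroblasts Aldh1a2 made up 153 and 158 CPM of the epicardial sums with phenylephrine and 65.9 and 91.7 CPM in serum-free medium. The epicardial marker Aldh1a2 was lower in cardiomyocytes (log2 -2.84 with phenylephrine and -2.00 in serum-free medium), as were the endothelial marker Tek (-1.02 and -0.80) and, with phenylephrine, the epicardial marker Upk3b (-1.14). Of the smooth muscle and pericyte markers in serum-free medium, 3 of 8 were higher and 4 lower, and with phenylephrine 4 and 3. No marker was at 0 in cardiomyocytes; in fibroblasts the endothelial marker Emcn was at 0 in all libraries and the leukocyte marker Cd74 in 1. Their part in the levels of Lum and Podn was not tested. Without both cardiomyocyte libraries that stood apart, the 6 members called with phenylephrine were the same 6. In serum-free medium all 8 were then called, Dcn among them (log2 0.90, adjusted p = 0.00801, higher in cardiomyocytes). The share of all genes that this fit called between cell types is not given here, so these counts show nothing particular to the members.

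**Figure D2:**
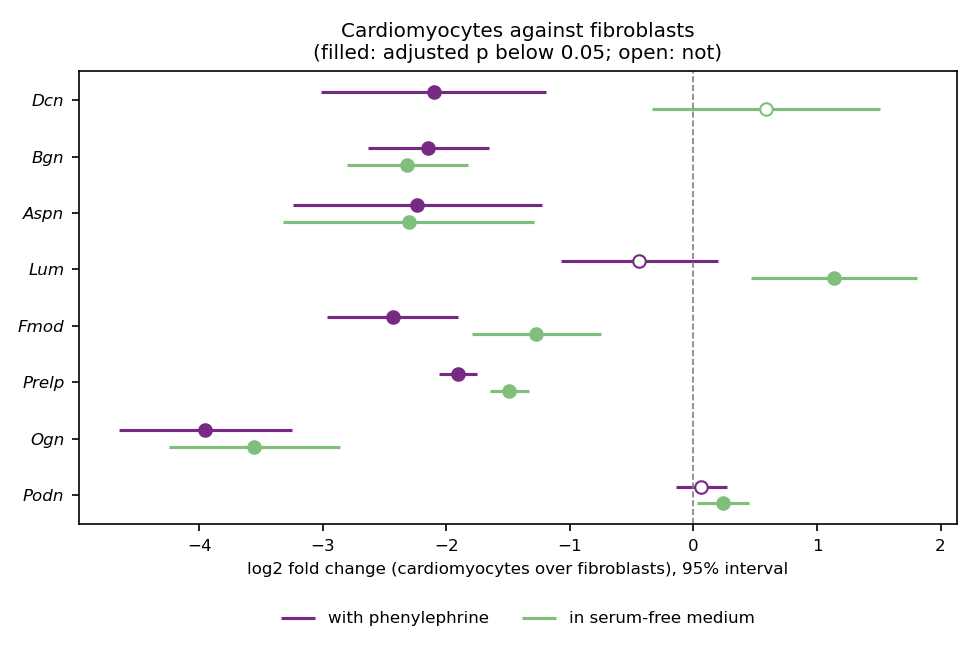
Log2 fold change of each tested member in cardiomyocytes over fibroblasts, with its 95% interval, for libraries with phenylephrine (purple) and in serum-free medium (green); filled points passed an adjusted p of 0.05. Bgn, Aspn, Fmod, Prelp and Ogn lie left of 0 in both media, the Dcn point with phenylephrine is filled at -2.10, and the Lum point in serum-free medium is filled at 1.14.

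The comparison of phenylephrine with serum-free medium asked how the agonist changed these genes in each cell type. In fibroblasts, 1 of the 8 tested members passed the test, where 3.83% of all genes were called and 2.06% were called higher: Prelp, 1.32-fold higher with phenylephrine (0.40 ± 0.078, adjusted p = 0.0164). The members' median was 0.38, beside -0.0029 for all genes. Dcn (1.21 ± 0.44, 2.31-fold, adjusted p = 0.194), Lum (1.10 ± 0.31, 2.14-fold, adjusted p = 0.107), Fmod (0.85 ± 0.25, 1.8-fold, adjusted p = 0.109) and Ogn (0.36 ± 0.31, 1.28-fold, adjusted p = 0.606) had both phenylephrine libraries above both others but missed the threshold. With 2 libraries per group such separation arises easily, and its share over all genes was not computed. Bgn (0.06 ± 0.24), Aspn (0.14 ± 0.44) and Podn (0.06 ± 0.10) had overlapping libraries, and the 95% interval for Bgn ran from 0.717-fold to 1.51-fold. In a fit of the 4 fibroblast libraries alone, 4 members were called higher (Dcn, Fmod, Prelp and Ogn). That fit called 1353 of 13869 genes, against 531 in the main fit. DESeq2 called 3 members (Lum, Fmod and Prelp), and its count over all genes for this comparison is not given here. The authors' deposited table comes from DESeq2 on the same libraries, so it is not separate evidence. For this comparison it lists Lum (log2 1.09, adjusted p = 0.00464), Fmod (0.84, adjusted p = 0.0198) and Prelp (0.39, adjusted p = 0.00169), and Dcn at 1.20 with an adjusted p of 0.152. The Prelp call was lost without fibroblast replicate 1 or 2 with phenylephrine (adjusted p = 0.151 and 0.114) or replicate 1 in serum-free medium (0.141), each of which leaves a group with a lone library. Summed epicardial markers were 194 to 200 CPM with phenylephrine and 110 to 122 CPM without it (1 of 9 called, Aldh1a2, higher). Aldh1a2 made up 153 and 158 CPM of these sums with phenylephrine and 65.9 and 91.7 CPM without it. Fibroblast markers lay at 53774 to 55961 CPM and 39314 to 46481 CPM (1 of 8 called, Tcf21, higher) and endothelial markers at 40.4 to 41.8 CPM and 24.2 to 29.9 CPM (1 of 7 called, Tek, higher, which made up 35.4 and 38.2 CPM of the sums with phenylephrine). Smooth muscle and pericyte markers summed to 4439 to 4589 CPM with phenylephrine and 5185 to 5546 CPM without it (0 of 8 called). Their part in the result was not tested.

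In cardiomyocytes, none of the 8 passed the edgeR test, where 3.63% of all genes were called; Dcn alone had an unadjusted p under 0.05, and DESeq2 called Dcn alone. The members' median was -0.07, beside -0.0013 for all genes. Dcn lay 2.79-fold lower with phenylephrine (-1.48 ± 0.36, adjusted p = 0.0667), with no overlap between the groups. The authors' deposited table gives it a log2 fold change of -1.48 with an adjusted p of 0.00466. Lum (-0.48 ± 0.25, adjusted p = 0.305) and Fmod (-0.31 ± 0.22, adjusted p = 0.443) overlapped between groups, and the other 5 had log2 fold changes between -0.11 and 0.23. For Prelp the 95% interval ran from 0.895-fold to 1.09-fold. A library that stood apart made the Dcn value smaller in size: serum-free replicate 2, at 109 CPM, lay close to the phenylephrine libraries. Without that replicate Dcn was called lower (log2 -1.81, adjusted p = 0.0015), and so was Fmod (-0.53, adjusted p = 0.0345). How many of all genes were called without that replicate is not given here. Without any other single cardiomyocyte library Dcn was at log2 -1.66 to -1.11, with adjusted p between 0.0763 and 0.205. Without both libraries that stood apart, Dcn (-1.99, adjusted p = 0.00172), Fmod (-0.38, adjusted p = 0.00263) and Podn (-0.26, adjusted p = 0.0063) were called lower. That fit called 3507 of 13869 genes, against 503 with all 10 libraries. Leukocyte markers summed to 135 to 167 CPM with phenylephrine and 181 to 210 CPM in serum-free medium (3 of 10 called, all lower). Their part in the Dcn value was not tested.

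**Figure D3:**
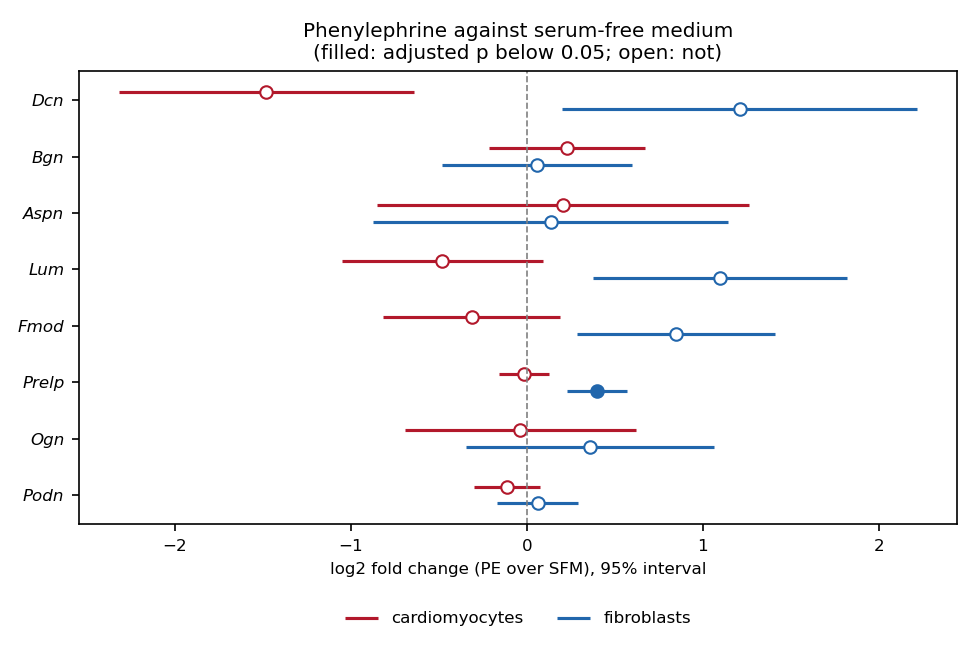
Log2 fold change of each tested member with phenylephrine over serum-free medium, with its 95% interval, in cardiomyocytes (red) and in fibroblasts (blue); the filled point passed an adjusted p of 0.05. The Dcn values lie on opposite sides of 0, at -1.48 in cardiomyocytes and 1.21 in fibroblasts, and Prelp in fibroblasts is the filled point at 0.40.

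The response to phenylephrine was then compared between the cell types as an interaction, the log2 change in cardiomyocytes minus that in fibroblasts, which is also the change in the cell-type difference between the media. All comparisons reuse the same 4 groups, so the values of a gene are not independent between them. Dcn was the 1 member called (-2.69 ± 0.57, a 6.45-fold difference, adjusted p = 0.0484), where 3.25% of all genes were called and 1.62% were called lower. Prelp (-0.42 ± 0.10, adjusted p = 0.0512), Lum (-1.58 ± 0.40, adjusted p = 0.0795) and Fmod (-1.16 ± 0.33, adjusted p = 0.103) fell short, and Bgn (0.17 ± 0.31), Aspn (0.07 ± 0.64), Ogn (-0.40 ± 0.42) and Podn (-0.17 ± 0.13) had adjusted p of 0.523 or more. The members' median was -0.41, beside 0.0041 for all genes. The Dcn call was close to the threshold and was lost with scaling by library size alone (adjusted p = 0.054), with no low-count filter (0.111) and without any single library except cardiomyocyte replicate 2 in serum-free medium (log2 -2.87 to -2.32, adjusted p 0.0546 to 0.202). Without that replicate it was -3.02 (adjusted p = 0.00163). A block for replicate number also lost the call, although same-numbered libraries did not deviate together. Without both cardiomyocyte libraries that stood apart the Dcn value was -3.21 (adjusted p = 0.00147), and 6 members were called, all lower: Dcn, Lum, Fmod, Prelp, Ogn and Podn. Calls rose over all genes too in that fit, to 2641 of 13869, against 451 with all 10 libraries.

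Ratios of raw counts within a library do not depend on the scaling. For every 100 Bgn counts there were 3.37 to 3.91 Dcn counts in cardiomyocytes with phenylephrine, against 15.3, 4.78 and 18.0 in cardiomyocytes in serum-free medium. In fibroblasts there were 3.37 and 3.73 with phenylephrine, against 1.51 and 1.67 in serum-free medium. The ratio of Dcn to Lum counts was 1.30 to 1.53 in cardiomyocytes with phenylephrine and 3.26, 1.63 and 3.30 in serum-free medium, and in fibroblasts it was 4.52 and 4.42 with phenylephrine and 4.84 and 3.71 without it. In cardiomyocytes both ratios were lower in every library with phenylephrine than in any library without it. In fibroblasts the Dcn to Bgn ratio was higher in both libraries with phenylephrine, and the Dcn to Lum ratios overlapped between treatments.

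Within groups the members did not all vary together. Cardiomyocyte replicate 1 with phenylephrine was the highest of its group in 7 of the 8 tested members and the lowest in Fmod. Cardiomyocyte replicate 2 in serum-free medium was the highest of its group in Bgn, Aspn and Ogn and the lowest in Dcn, Lum, Fmod, Prelp and Podn. Over deviations of log2 CPM from the group means in all 10 libraries, Bgn, Aspn and Ogn followed each other (Pearson's r 0.94 to 0.96) and Fmod ran against them (r -0.87 with Bgn, -0.97 with Aspn and -0.92 with Ogn), while Dcn and Lum had r = 0.71 and Lum and Podn 0.86. These are descriptions, since the points share library and depth and most of the spread comes from that pair of libraries. The fibroblast marker sums were 14858, 8848 and 8750 CPM in cardiomyocytes with phenylephrine and 6225, 11736 and 6742 CPM in serum-free medium, highest in the same pair as Bgn, Aspn and Ogn. Their part in this pattern was not tested.

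**Figure D4:**
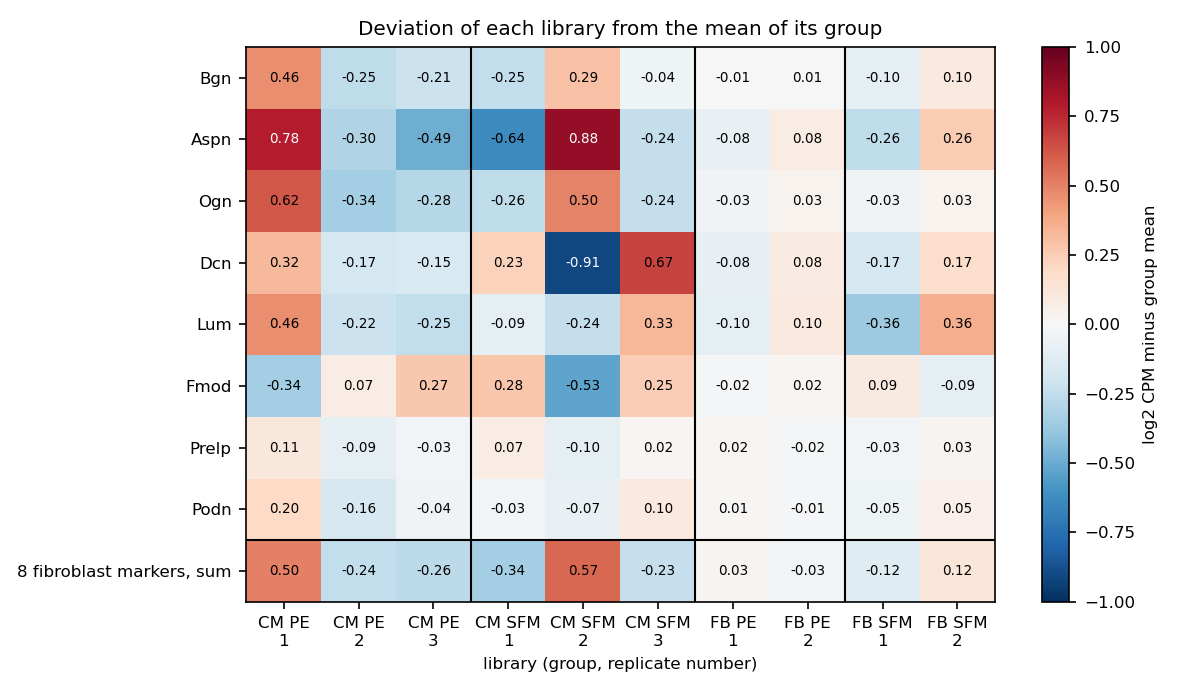
Deviation of log2 CPM in each library from the mean of its group, for the 8 tested members and for the summed level of 8 fibroblast markers (red, above the mean, and blue, below). Most of the marker sum is Col1a1 and Col3a1. Cardiomyocyte replicate 1 with phenylephrine and cardiomyocyte replicate 2 in serum-free medium are above their groups in Bgn, Aspn, Ogn and the marker sum and below them in Fmod, while Dcn is above its group in the first of these libraries and below it in the other.

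By level over all 10 libraries, the genes most like each member, as Pearson's r of log2 CPM, were Tspan17, Ctdspl and Fgfr3 for Ogn (r 0.998 to 0.999), Clstn1, Pros1 and Cmklr1 for Bgn (0.998 to 0.999), Cacnb3 and Ppap2a for Prelp (0.997 for each), Stim1, Pcdhb15 and Sdc3 for Aspn (0.991 to 0.994) and Igfbp3, Nle1 and Fbxl12 for Fmod (0.977 to 0.982). Dcn was closest to Gna12 (0.96), Mgst1 (0.96) and Car2 (0.95), Lum to Dis3l2 (0.94), Mdk (0.93) and Tnfsf13 (0.93), and Podn to Mvb12b (0.92), Trappc12 (0.91) and B4galt5 (0.90). The points share the split between the 2 cell types, across which Ogn, Bgn, Prelp, Aspn and Fmod differed.

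In the RefSeq gene table (GRCr8, used for names and neighbours only), several members are neighbours. Dcn stands beside Lum on chromosome 7, followed by Kera and Epyc. Optc, Prelp and Fmod stand in a row on chromosome 13, and Ogn, Omd and Aspn in a row on chromosome 17, where Ecm2 follows. Prelp and Fmod were both lower in cardiomyocytes in either medium. Dcn and Lum had log2 fold changes of 1.21 and 1.10 with phenylephrine in fibroblasts and of -1.48 and -0.48 in cardiomyocytes, none past the threshold. Omd had 1 count, while the neighbouring Ogn and Aspn were both lower in cardiomyocytes. The genes on chromosome 17 lie within Cenpp, and the strand setting of the authors' counting is not given, so reads of overlapping genes cannot be told apart and the single values of Ogn, Aspn, Omd and Ecm2 carry that limit, although Cenpp is no symbol of the count table. Dcn, Fmod and Prelp each overlap a provisional gene outside the table and Chad overlaps Acsf2, which is in it, so the same limit holds for them.

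Of 9 further small leucine-rich proteoglycans, 5 could be tested. Kera, keratocan of the cornea, had no count in any library, which allows up to 3 counts (0.128 to 0.166 CPM), and Nyx, Chadl and Podnl1 had 20, 22 and 49 counts in all. With phenylephrine 4 of the 5 were lower in cardiomyocytes, where 31.2% of all genes were, and in serum-free medium 3 were, where 31.7% of all genes were. Tsku, tsukushi, a secreted regulator of BMP and Wnt signalling, averaged 39.4 CPM in cardiomyocytes and 94.5 CPM in fibroblasts with phenylephrine (-1.26 ± 0.16) and 35.5 CPM and 76.3 CPM in serum-free medium (-1.10 ± 0.16). Epyc, epiphycan of cartilage, was lower in cardiomyocytes with phenylephrine (-1.62 ± 0.41) and in serum-free medium (-1.80 ± 0.45), as was Optc, opticin of the eye (-3.28 ± 0.47 and -1.79 ± 0.49), at 3.26 CPM or less in every group. Ecm2 was lower in cardiomyocytes with phenylephrine (-2.11 ± 0.34), and in fibroblasts it was 3.1-fold higher with phenylephrine (1.63 ± 0.36, adjusted p = 0.0302), at 1.21 CPM with it and 0.386 CPM without it. Chad, chondroadherin, passed in no comparison. No gene of this group passed the test for phenylephrine in cardiomyocytes.

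The collagens and fibril partners that these proteins bind lay lower in cardiomyocytes: 18 of 24 with phenylephrine and 20 of 24 in serum-free medium, with 1 higher in each, and medians of -2.03 and -2.07 beside 0.02 for all genes. Among all genes 31.2% were called lower with phenylephrine and 31.7% in serum-free medium. Col1a1, Col1a2 and Col3a1 in this list are also among the fibroblast markers. In serum-free medium they included Fn1, fibronectin (-2.21 ± 0.11), Eln, elastin (-5.60 ± 0.35), Col14a1, a fibril-associated collagen (-3.42 ± 0.27), and Matn4, a matrilin (-3.20 ± 0.22). With phenylephrine in fibroblasts 2 of 24 were higher and 1 lower: Fbln1, fibulin 1, averaged 407 CPM with it and 75.2 CPM without it (2.44 ± 0.23, adjusted p = 0.00114), Tnxb, tenascin X, which binds decorin and fibrillar collagen, was 2-fold higher (1.00 ± 0.21), and Fn1 fell by 0.53 on the log2 scale. In cardiomyocytes Matn4 alone passed, higher with phenylephrine (1.18 ± 0.23). The interaction was called for Fbln1 (-2.26), Tnxb (-1.38) and Fn1 (0.68), the first pair in the same direction as Dcn.

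The proteins that give the core proteins their sugar chains were split by step. Over all genes 31.2% were called lower in cardiomyocytes with phenylephrine and 31.7% in serum-free medium. Of 17 tested enzymes of chondroitin and dermatan sulfate, 13 were lower and 3 higher in cardiomyocytes with phenylephrine and 12 lower and 1 higher in serum-free medium (medians -0.93 and -0.95). They included Chst14, the dermatan 4-sulfotransferase (-1.52 ± 0.11 with phenylephrine and -1.65 ± 0.11 in serum-free medium), and the polymerising factors Chpf (-0.90 ± 0.081 and -1.13 ± 0.081) and Chpf2 (-0.89 ± 0.070 and -1.08 ± 0.070). Of 12 genes for the linker between core protein and chain, 6 were lower in cardiomyocytes in either medium and 2 were higher with phenylephrine, 3 in serum-free medium (medians -0.31 and -0.19), and the share called was close to that over all genes (65% with phenylephrine and 66.1% in serum-free medium). The smallest adjusted p was that of Xylt1, the xylosyltransferase that starts the chain (-1.48 ± 0.12 and -1.87 ± 0.12). Of 10 enzymes of keratan sulfate, the chain of Lum and Fmod, 3 were higher and 3 lower with phenylephrine and 3 higher and 4 lower in serum-free medium (medians 0.07 and -0.02). Here too the share called was close to that over all genes. Examples are the sulfotransferase Chst1, higher in cardiomyocytes (1.45 ± 0.27 and 1.59 ± 0.28), and the fucosyltransferase Fut8, lower (-0.64 ± 0.094 and -0.88 ± 0.094). With phenylephrine in cardiomyocytes Chsy1, a chondroitin synthase, was 1.41-fold higher (0.50 ± 0.075) and Chpf 1.32-fold higher (0.40 ± 0.074). In fibroblasts Ust, the uronyl 2-sulfotransferase, fell by 0.62 on the log2 scale, and its interaction was called (1.01 ± 0.18). No linker or keratan sulfate gene passed for phenylephrine in either cell type.

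Of 11 tested proteases and helpers that process the core proteins or the collagens around them, 8 were lower and 2 higher in cardiomyocytes with phenylephrine, and 7 lower and 2 higher in serum-free medium (medians -1.22 and -1.21). The share of all genes called lower was 31.2% with phenylephrine and 31.7% in serum-free medium. Pcolce, the enhancer of procollagen C-proteinase, was at -1.93 ± 0.12 with phenylephrine and -1.79 ± 0.12 in serum-free medium, and the membrane protease Mmp14 at -1.60 ± 0.13 and -1.57 ± 0.13. Mmp12, the macrophage elastase, lay the other way with phenylephrine (2.16 ± 0.27) and in serum-free medium (3.22 ± 0.27). It was lower in cardiomyocytes with phenylephrine than without it (-1.18 ± 0.20, adjusted p = 0.0236), beside the leukocyte markers given above. In fibroblasts Adamts1 fell by 0.60 on the log2 scale with phenylephrine.

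Of 28 tested growth factors and receptors that small leucine-rich proteoglycans bind or regulate, 9 were higher and 14 lower in cardiomyocytes with phenylephrine and 10 higher and 16 lower in serum-free medium (medians -0.47 and -0.47). Calls in either direction took 65% of all genes with phenylephrine and 66.1% in serum-free medium. With phenylephrine in fibroblasts Tgfb2 averaged 184 CPM, against 293 CPM in serum-free medium (-0.68 ± 0.10, adjusted p = 0.00436), and Tgfb3 averaged 979.97 CPM, against 1986 CPM (-1.02 ± 0.18, adjusted p = 0.0145). Wisp1, a secreted protein known to bind decorin and biglycan, was also lower (-0.69 ± 0.13), and the coreceptor Tgfbr3, betaglycan, was higher (0.60 ± 0.14). In cardiomyocytes Kdr, the VEGF receptor and an endothelial marker (0.78 ± 0.13), and Bmp2 (0.66 ± 0.12) were higher with phenylephrine, and no TGF-beta gene passed. The interaction was called for Tgfb2 (0.80), Tgfb3 (1.40) and Itgb1 (0.90), higher in cardiomyocytes, and for Tgfbr3 (-0.99) and Tgfbr2 (-0.68), lower.

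Of 20 tested proteoglycans outside the family, 8 were higher and 10 lower in cardiomyocytes with phenylephrine, and 10 higher and 9 lower in serum-free medium (medians -0.30 and -0.01). Beside these, 65% of all genes were called with phenylephrine and 66.1% in serum-free medium. The glypican Gpc1 was higher in cardiomyocytes in both media (3.14 ± 0.12 with phenylephrine and 2.86 ± 0.12 without it), while Gpc3 (-2.73 ± 0.097 and -1.99 ± 0.097) and Gpc4 (-3.03 ± 0.17 and -3.35 ± 0.17) were lower. With phenylephrine in fibroblasts Gpc3 was higher (0.70 ± 0.10) and Gpc1 lower (-0.59 ± 0.12), and in cardiomyocytes Cspg4, also a pericyte marker, was higher (0.91 ± 0.18).

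**Figure D5:**
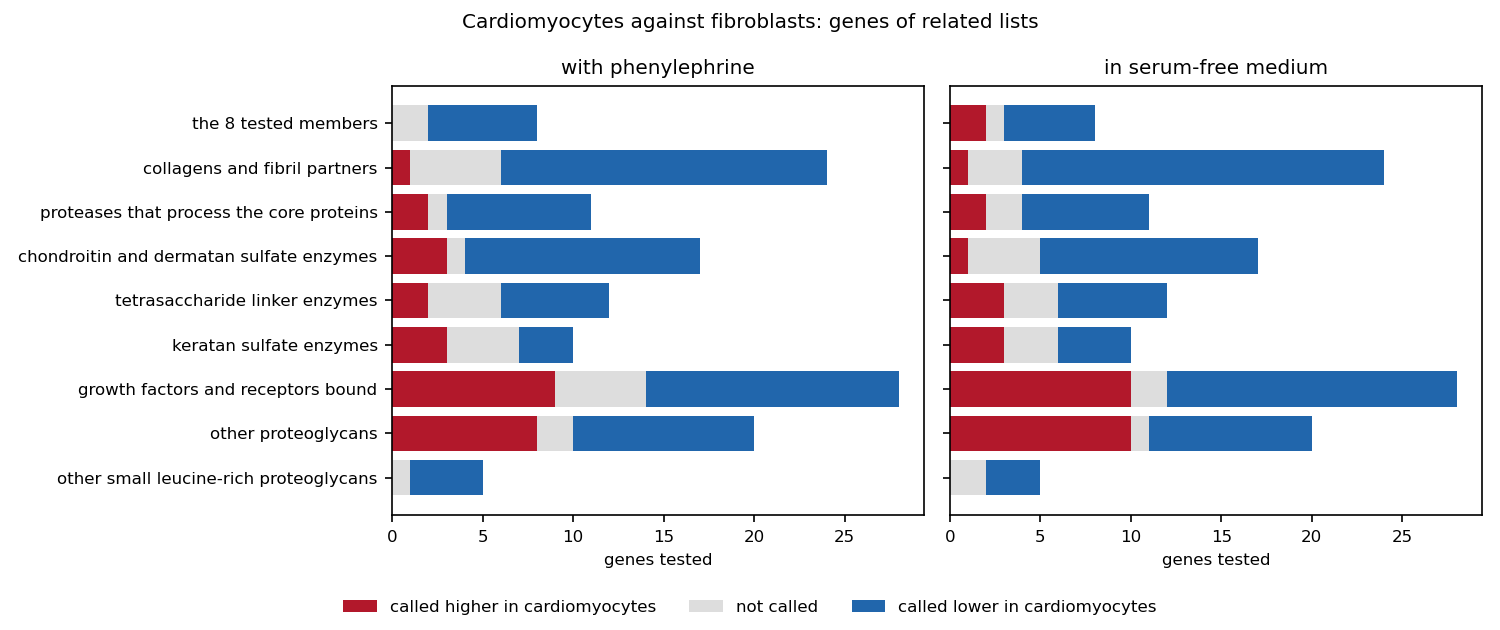
Number of tested genes in each related list that were called higher (red) or lower (blue) in cardiomyocytes than in fibroblasts or were not called (grey), with phenylephrine (left) and in serum-free medium (right). Collagens and fibril partners have 18 and 20 of 24 genes lower, whereas other proteoglycans are split, with 10 and 9 of 20 lower. Over all genes, 31.2% and 31.7% were lower.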

How the data were processed

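Per the labels, total RNA was made into TruSeq RNA v2 libraries, 10 on 1 lane. Per the submitters' processing notes, the authors used cutadapt, TopHat2 2.0.10 with Rnor_6.0, HTSeq 0.6.1p1 and DESeq2 1.6.3; the annotation release and strand setting are not given in the sources used here. The deposited table holds a whole-number count per gene symbol and library, not normalized, and was used as deposited. It also holds, per the file headers, the authors' log2 fold change and adjusted p-value for each of 4 comparisons from DESeq2; 10 further per-library columns were not used.

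TMM factors scaled the libraries, and filterByExpr (at least 10 counts, total of at least 15) left 13869 genes. A robust quasi-likelihood model with 1 coefficient per group was fitted to all 10 libraries (edgeR 4.0.16, R 4.3.3) and checked on simulated counts. In each of 5 contrasts, two-sided p-values were adjusted over all genes (Benjamini-Hochberg) and called below 0.05; ± is the standard error unless SD is stated. Likeness used log2 CPM with a prior count of 2, for members with a mean of at least 1 CPM. Precision is given by depth: 18048944 to 22794744 counts per library, and intervals and floors cover counting error only where they rest on counts. Alternatives were relative log expression factors, library size alone, no filter, DESeq2 1.42.0, only the groups compared, a replicate block, each library left out, and both libraries that stood apart left out.

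The text names every member, all further small leucine-rich proteoglycans, up to 4 genes of smallest adjusted p per related list and contrast, those called for phenylephrine, and the 3 genes most like each member, of which 1 is not reported here. Members and lists were chosen with earlier results of these data known. Gene names, neighbours and promoters came from RefSeq (GRCr8), in which 16885 of 28522 symbols and all 9 members matched a current symbol.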

Additional observations from a re-analysis of the deposited data

Results flagged for a closer look

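The response of Dcn to phenylephrine differed between the cell types in a test of the difference itself: the log2 change in cardiomyocytes minus that in fibroblasts was -2.69 ± 0.57 (SE, edgeR adjusted p = 0.0484). Dcn averaged 81.2 CPM with phenylephrine and 226 CPM without it in cardiomyocytes, and 349 CPM with phenylephrine and 151 CPM without it in fibroblasts. The libraries with and without phenylephrine did not overlap in either cell type. The share of all genes with such separation was not computed. The adjusted p moved with the pair of cardiomyocyte libraries that stood apart: it was 0.0546 without replicate 1 with phenylephrine, 0.00163 without replicate 2 in serum-free medium and 0.00147 without both. The value was larger in size without replicate 2 in serum-free medium (-3.02) and without both (-3.21). A block for replicate number lost the call, although same-numbered libraries did not deviate together. The call was lost without each of the other 8 libraries too (adjusted p 0.0693 to 0.202), with scaling by library size alone (0.054) and with no low-count filter (0.111).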

How the results depend on the processing

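No called value changed sign. Of the members' log2 values recomputed, 453 kept their side of the threshold, 434 with the same sign and 19 that were never called with the other sign; 28 passed it where the main value did not and 23 missed it where the main value passed. The members called for cell type numbered 5 to 8 in serum-free medium and 6 to 7 with phenylephrine over all alternatives, beside 7 and 6. For phenylephrine in fibroblasts, beside 1 member, DESeq2 called 3, the fit of the compared groups alone 4 and leaving out each library 0 to 1. For phenylephrine in cardiomyocytes, beside 0, DESeq2 called 1, leaving out each library 0 to 2 and leaving out both libraries that stand apart 3. For the difference between cell types, beside 1, DESeq2 called 4, the replicate block 0, leaving out each library 0 to 3 and leaving out both 6. The replicate numbers did not pair the samples (correlations of same-numbered deviations -0.22, -0.10 and 0.02 in cardiomyocytes and -0.04 in fibroblasts), and under the replicate block the calls of Dcn in the difference (adjusted p = 0.0983) and Podn between cell types in serum-free medium (adjusted p = 0.0974) were lost.

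Counts over all genes moved too: for phenylephrine in cardiomyocytes 503 genes were called, against 94 with the compared groups alone, 205 with the block, 968 by DESeq2 and 3507 without both libraries; in fibroblasts 531, against 1353 with the compared groups alone and 322 with the block; for the difference 451, against 790 by DESeq2, 230 with the block and 2641 without both. All-gene counts are not given here for the alternatives of the cell-type comparisons, for DESeq2 in fibroblasts or for fits leaving out a single library. The cause was not tested. With 2 fibroblast libraries per group, leaving out 1 leaves a lone library assumed to vary like the others.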
